A study of Schizosaccharomyces pombe with 8 samples.

Results

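The small ribosomal subunit of fission yeast is built on 1 ribosomal RNA from proteins whose genes are named rps, most of them present in the genome as more than 1 copy. All genes whose symbol begins with rps and a digit were taken from the probe table, which gave 45 of the 2899 genes with a single name on the array, each represented by 1 probe set (of several, the one with the highest mean over all arrays). The current gene table lists 55 nuclear rps genes, and the 10 without a probe set of their own were not analysed here. All 45 had a value on every array and were tested.

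RNA of Schizosaccharomyces pombe was compared between a wild-type strain and a strain deficient in zfs1, the gene of a tandem CCCH zinc finger protein that the series title describes as binding and destabilising mRNA. Both strains grew at 30 °C in Edinburgh minimal medium with adenine, histidine, leucine, lysine and uracil at 50 mg/l each, and RNA was taken at an optical density of 1.0. The sample titles call the deficient strain deltaZFS. The labels describe neither this allele further nor the other genotype of either strain. Each strain is represented by 4 cultures, numbered 1 to 4, with 1 array each (8 arrays). Each labelling began with 1 µg of total RNA, and the labels give 5 µg of labelled RNA (cRNA) for each array. The amount of ribosomal protein mRNA per cell was therefore not measured, only its part of the labelled RNA. The zfs1 signal, which checks the labels, was 10.39 to 10.62 in wild type and 3.51 to 4.55 in the deficient strain on the log2 scale used throughout.

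As background, small-subunit proteins fold and hold the ribosomal RNA, form the path of the mRNA and help to read codons. The subunit has a head and a body with a platform, and the decoding centre lies between them. Transcripts of these proteins are among the most abundant of growing yeast cells, and they are regulated together with growth through the TOR pathway, in which S6 kinases phosphorylate the protein encoded by the rps6 genes. Zfs1 belongs to a protein family that binds AU-rich elements of mRNA, and whether any rps transcript is bound by it was not measured.

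The strain comparison asked which of these transcripts differ when zfs1 is missing. In the deficient strain 44 of the 45 rps genes had a higher mean than in wild type, where 47.4% of all 4969 tested probe sets did, but every difference was small. The median was 0.064 on the log2 scale and the range ran from -0.0002 for rps2501 to 0.14 for rps1801 and rps2302, against a median of -0.013 over all tested probe sets. None of the 45 passed limma's test with Benjamini-Hochberg adjustment over all tested probe sets, where 5.78% of all were called, and 7 higher and 0 lower had an unadjusted p under 0.05, where 10.1% of all were higher at that level. With cultures of the same number blocked together, 2 of the 45 passed, both higher, while 24.2% of all tested probe sets passed. In that fit 15 rps genes had an unadjusted p under 0.05, but the share of all probe sets at that level was not counted. The number with a higher mean depended on the scaling: it was 45 with arrays centred on their medians, but 35 after cyclic loess and 30 after quantile normalisation, where the medians were 0.030 and 0.014. Without wild-type replicate 4 the count was 38 and the median 0.043.

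**Figure D1:**
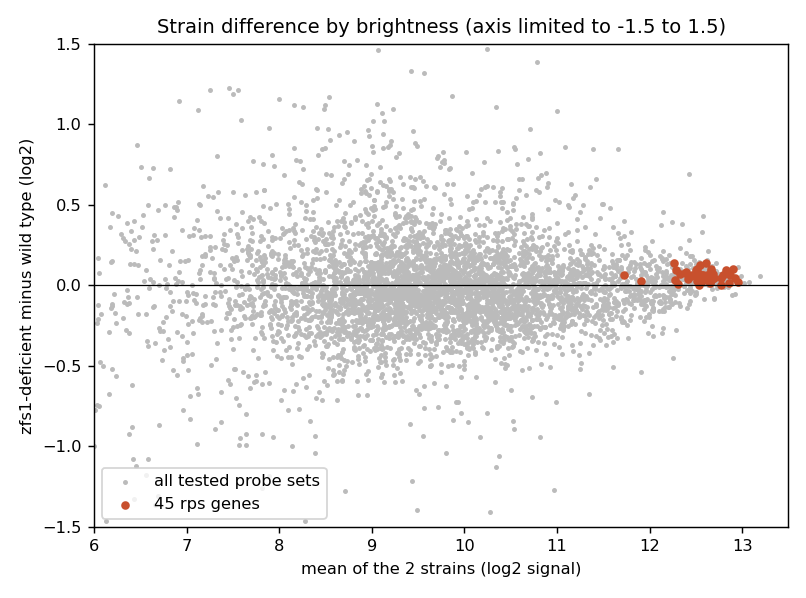
Difference between the strains (zfs1-deficient minus wild type, log2, vertical axis) against the mean log2 signal of both strains (horizontal axis), 1 point per tested probe set, with the 45 rps genes in colour; 300 probe sets at a mean of 6 or less, or differing by more than 1.5, fall outside the axes. The rps genes sit at the bright end, with 44 of 45 slightly above 0 as deposited and 30 after quantile normalisation.

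The 95% intervals bound how far each transcript could have differed on this array, 1 gene at a time and for the values as deposited. They do not include the choice of scaling, which moved the median difference from 0.064 to 0.014 after quantile normalisation. The half-width of the interval had a median of 0.097, and the largest upper bound over the 45 genes was 0.40 (1.32-fold, rps2302) and the lowest lower bound -0.21 (0.867-fold, rps1002). In 44 of 45 genes the upper bound lay under 1.2-fold. These bounds refer to array signals, and the rps probe sets lay near the top of the scale. Member signals ran from 11.59 to 13.02, with 44 of the 45 among the brightest 10% of every array, and stood a median of 0.58 below the brightest probe set of their array (range 0.20 to 1.60). Whether signals this bright still followed the amount of RNA in proportion was not tested. The brightest probe set of each array lay at 13.10 to 13.23 in wild type and 13.20 to 13.24 in the deficient strain.

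**Figure D2:**
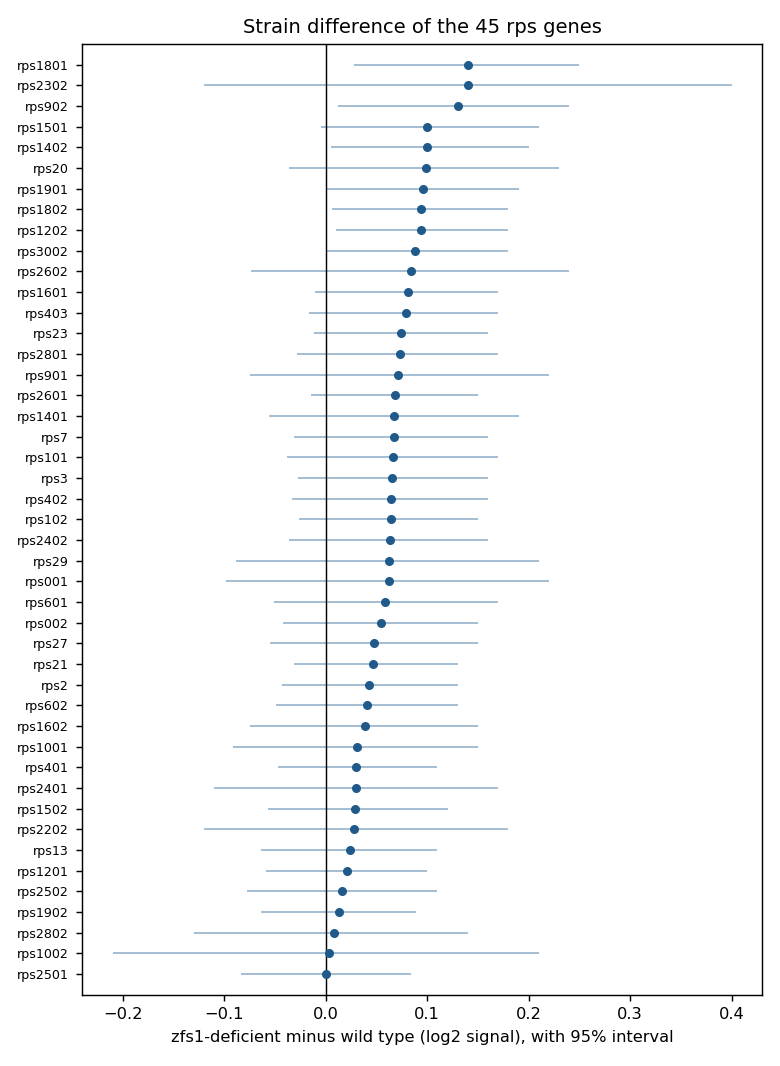
Difference between the strains (zfs1-deficient minus wild type, log2) of each of the 45 rps genes, with its 95% interval from limma, ordered by size. In 7 genes the interval lies above 0 (unadjusted), in none below, and 44 of 45 points lie above 0 as deposited, but 30 after quantile normalisation.

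Proteins of the head of the subunit are taken first, a grouping made from textbook knowledge after the values were seen. Of 19 genes for head proteins 18 had a higher mean in the deficient strain, with a median difference of 0.062, and 4 had an unadjusted p under 0.05, against 47.4% and 10.1% of all tested probe sets. rps1801 (SPBC16D10.11C), for a protein of the head at the interface with the large subunit, had signals of 12.14, 12.25, 12.15 and 12.23 in wild type and 12.31, 12.28, 12.32 and 12.41 in the deficient strain. The strains did not overlap. The difference was 0.14 ± 0.049 (SE, n = 4 per strain), 1.10-fold, with a limma adjusted p of 0.145. When cultures of the same number were blocked together in the fit, rps1801 passed (adjusted p = 0.0359). Its copy rps1802 (SPCC1259.01C) had 12.21, 12.24, 12.29 and 12.22 in wild type and 12.32, 12.35, 12.34 and 12.33 in the deficient strain, again without overlap, and differed by 0.094 ± 0.039 (adjusted p = 0.215).

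rps20 (SPCC576.09), another head protein gene, was the second of 2 genes that passed with the block, where 24.2% of all tested probe sets did. Its signals were 12.84, 12.87, 12.98 and 12.73 in wild type and 13.01, 12.97, 13.02 and 12.83 in the deficient strain. Both replicate 4 cultures were the lowest of their strain and the strains overlapped, while the deficient culture was the higher one in 4 of 4 numbered pairs. The difference was 0.099 ± 0.060 (SE, n = 4; limma adjusted p = 0.397, and 0.0419 with the block). Across the 45 genes, 22 were higher in 4 of 4 numbered pairs, where 20.5% of all tested probe sets were.

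The rps19 genes encode a head protein whose human counterpart is mutated in an inherited anaemia. rps1901 (SPBC21C3.13) had 12.73, 12.86, 12.84 and 12.70 in wild type and 12.87, 12.87, 12.88 and 12.88 in the deficient strain. All 4 deficient cultures lay above all wild-type cultures, with wild-type replicates 2 and 3 close below them, and the difference was 0.096 ± 0.042 (SE; adjusted p = 0.240). rps1902 (SPBC649.02) differed by 0.013 ± 0.034 (adjusted p = 0.881).

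Among genes of the beak, a part of the head, rps1202 (SPBC1685.02C) had 12.50, 12.47, 12.44 and 12.40 in wild type and 12.52, 12.55, 12.55 and 12.55 in the deficient strain. Its strains did not overlap, and the difference was 0.094 ± 0.037 (SE, n = 4; adjusted p = 0.194). Its copy rps1201 (SPCC962.04) differed by 0.021 ± 0.036 (adjusted p = 0.793). rps1501 (SPCC1393.03), whose protein reaches toward the decoding centre, had 12.43, 12.50, 12.55 and 12.36 in wild type and 12.55, 12.60, 12.58 and 12.54 in the deficient strain. The strains overlapped by the highest wild-type and the lowest deficient culture, and the difference was 0.10 ± 0.048 (adjusted p = 0.266). For its copy rps1502 (SPAC1071.07C) it was 0.029 ± 0.039 (adjusted p = 0.721).

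The smallest differences were also found among head proteins. rps2501 (SPBC3D6.15), for a protein that some viral mRNAs need for their translation in other species, had 12.75, 12.79, 12.82 and 12.75 in wild type and 12.72, 12.84, 12.79 and 12.76 in the deficient strain. The strains overlapped fully, with a 95% interval from -0.084 to 0.084. rps2502 (SPAC694.05C) differed by 0.016, rps2802 (SPCC285.15C) by 0.008 and rps1002 (SPBP22H7.08) by 0.003 (adjusted p from 0.877 to 0.994). After quantile normalisation these 3 differences were below 0.

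Of the 26 genes for proteins of the body and platform, 26 had a higher mean in the deficient strain, with a median of 0.064, and 3 had an unadjusted p under 0.05, the latter a share near the 10.1% of all tested probe sets (47.4% of all had a higher mean). rps902 (SPBC29A3.12), whose protein lines the entry of the mRNA channel, had 12.42, 12.62, 12.48 and 12.41 in wild type and 12.59, 12.61, 12.61 and 12.62 in the deficient strain. Wild-type replicate 2 was as high as the deficient cultures and the other 3 were lower, so the strains overlapped. The difference was 0.13 ± 0.050 (SE, n = 4; adjusted p = 0.202, and 0.0576 with the block).

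rps1402 (SPBC18H10.13), for a platform protein, had 12.62, 12.66, 12.64 and 12.52 in wild type and 12.70, 12.67, 12.73 and 12.75 in the deficient strain. The strains did not overlap, and the difference was 0.10 ± 0.042 (adjusted p = 0.219). rps3002 (SPBC19G7.03C), for a small protein of the body, had 12.61, 12.66, 12.58 and 12.62 against 12.69, 12.68, 12.67 and 12.78. Here too the strains did not overlap, with a difference of 0.088 ± 0.039 (adjusted p = 0.241). This gene was read with a probe set whose identifier marks possible matches to other transcripts. Its second probe set gave 0.049 ± 0.055, and probe sets assigned to rps3001 and rps3002 at once gave 0.023 and 0.016. On all of these other probe sets the strains overlapped. The probe set assigned to rps2201 and rps2202 at once differed by 0.057.

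rps2 (SPCC576.08C) encodes a protein at the mRNA entry that the methyltransferase Rmt3 modifies in this yeast. Its signals were 12.73, 12.78, 12.82 and 12.68 in wild type and 12.79, 12.83, 12.80 and 12.76 in the deficient strain, and the strains overlapped. The difference was 0.043 ± 0.039 (SE, n = 4; adjusted p = 0.583). The S6 kinase substrate genes rps601 (SPAC13G6.07C) and rps602 (SPAPB1E7.12) differed by 0.058 ± 0.048 and 0.041 ± 0.040 (adjusted p = 0.558 and 0.616). rps601 had 12.32, 12.47, 12.46 and 12.42 against 12.42, 12.55, 12.47 and 12.45, and was higher in 4 of 4 numbered pairs, while rps602 was higher in 2.

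In all, 7 rps genes had their 4 deficient cultures above all 4 wild-type cultures, where 7.83% of all tested probe sets did. In 0 of the 45 they were all below, where 383 of the 4969 tested probe sets were. The 7 genes above were rps403, rps1202, rps1402, rps1801, rps1802, rps1901 and rps3002. After cyclic loess 1 of the 45 and after quantile normalisation 0 of the 45 were separated in this way, and with arrays centred on their medians 10 were. As deposited, the mean over the 45 genes, taken relative to each gene's wild-type mean, was -0.02, 0.04, 0.03 and -0.05 on the wild-type arrays and 0.05, 0.07, 0.07 and 0.06 on the deficient arrays, so the arrays of the strains lay next to each other without overlap.

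**Figure D3:**
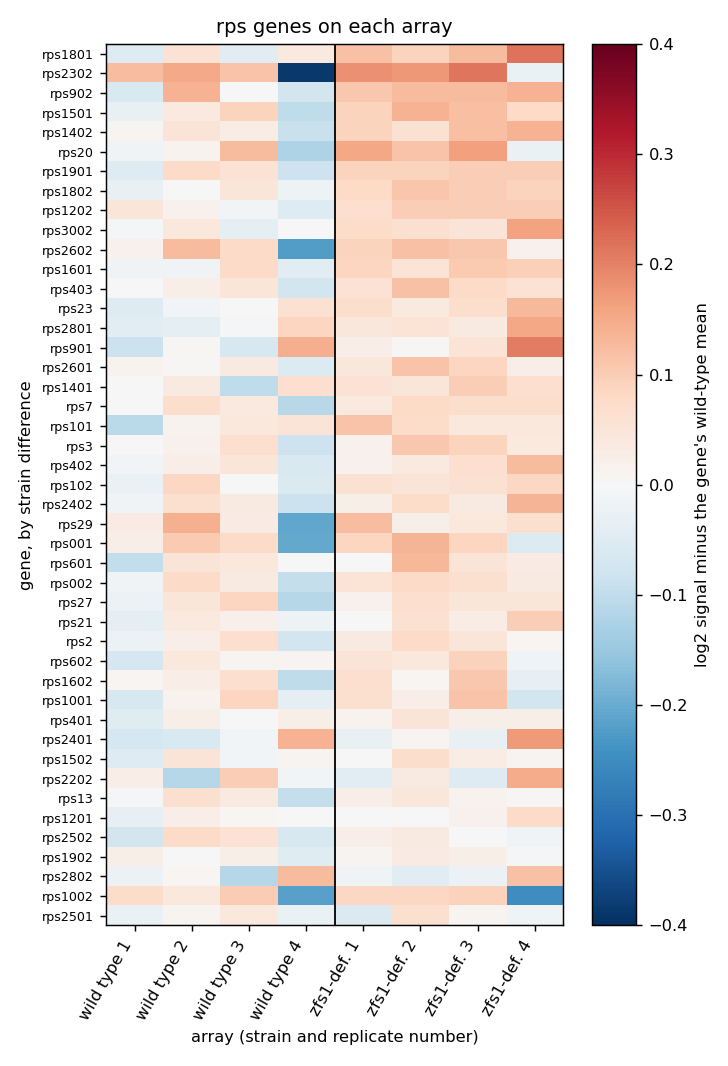
Log2 signal of each of the 45 rps genes (rows, ordered by strain difference) on each of the 8 arrays (columns), shown as the difference from the gene's wild-type mean, on a colour scale from -0.4 to 0.4. The deficient arrays are mostly slightly above 0 as deposited, but after quantile normalisation 30 of 45 genes are above 0 with a median of 0.014, and both replicate 4 arrays differ from the rest in the order of the genes.

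The rps genes varied little between cultures of a strain. Their residual SD had a median of 0.056, against 0.194 over all tested probe sets, which include much dimmer ones. For the 74 large-subunit ribosomal protein genes the median was 0.063. rps1902 had the smallest SD (0.03) and rps2302 the largest (0.20). rps2302 (SPBP4H10.13), for a protein of the decoding centre, had 12.67, 12.70, 12.66 and 12.16 in wild type and 12.73, 12.72, 12.76 and 12.52 in the deficient strain. The replicate 4 culture was the lowest in both strains, and the strain difference of 0.14 ± 0.12 (SE; adjusted p = 0.558) was among the largest of the list and the least precise. It rested on wild-type replicate 4, without which it was 0.009, and it was 0.063 without both replicate 4 arrays.

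In the replicate 4 cultures some rps genes were lower and others higher than in the remaining cultures of the strain. Relative to the mean of replicates 1 to 3, wild-type replicate 4 was lower for 33 of 45 genes and deficient replicate 4 for 26, with 21 lower in both, 7 higher in both and the others differing in direction between the strains. Among those lower in both, rps2302 had a shift of -0.51 for wild type and of -0.22 for the deficient strain, rps1002 (head) one of -0.29 and -0.33, and rps001 (SPBC685.06, for a body protein near the mRNA exit) with -0.27 and -0.16. rps20 differed by -0.17 in each strain.

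Higher in both replicate 4 cultures were rps901 (SPAC24H6.07, mRNA entry) with 0.19 and 0.18, rps2401 (SPAC17G6.06, body) with 0.18 in each strain, rps2802 with 0.17 and 0.14 and rps2801 (SPAC25G10.06, head) with 0.11 in each strain. The strain differences of rps2401 and rps2801 themselves were 0.030 and 0.073. Across the 45 genes the shift in wild type and the shift in the deficient strain had a Pearson r of 0.71 and a Spearman rho of 0.56. Across all tested probe sets these were 0.65 and 0.73, so the likeness extended over the whole array. Genes of 1 array are not independent, each shift rests on 1 culture per strain, and whether the cultures numbered 4 shared a day or batch is not given.

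**Figure D4:**
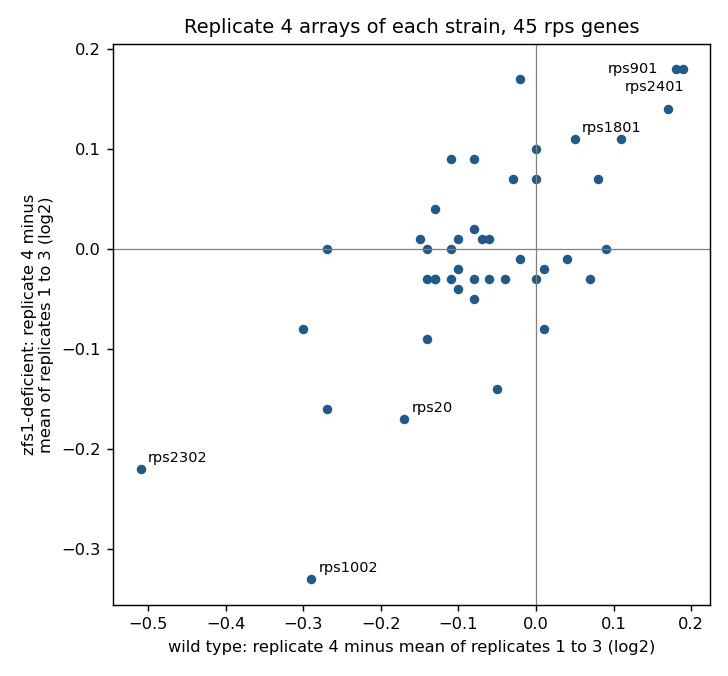
Shift of the replicate 4 array from the mean of replicates 1 to 3 in wild type (horizontal axis, log2) and in the zfs1-deficient strain (vertical axis, log2), 1 point per rps gene, 45 in all. rps1002 and rps2302 lie low in both strains and rps901 and rps2401 high in both.

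Because most of these proteins are encoded by more than 1 gene, copies of the same protein were compared in their strain difference. The 45 genes held 17 families with at least 2 measured copies, 35 genes in all, giving 18 pairs. Within each array the log2 signal of one copy was subtracted from that of the other, and this difference was compared between the strains. The offset between copies within a strain depends on their probes and is not read as a difference in mRNA amount. Copies are alike in sequence, so a probe set may also read RNA of the other copy, which would make them look more alike, and this was not tested. The change of the offset between strains ran from -0.073 to 0.083 over the 18 pairs and was under 0.05 in size in 12 of them.

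No pair of copies passed the exact permutation test (two-sided, 70 labellings, smallest possible p = 0.0286). The smallest p was 0.0571, or 0.514 after Benjamini-Hochberg adjustment over the 18 pairs, and 0 had an unadjusted p under 0.05. With so few arrays a single pair could not pass the adjusted test. The smallest p possible, 0.0286, was reached by rps1901 over rps1902 after quantile normalisation and without wild-type replicate 2, and by rps1501 over rps1502 and rps2801 over rps2802 without wild-type replicate 3 (exact permutation). The largest change was that of rps1901 over rps1902, whose offset was 0.05, 0.21, 0.17 and 0.10 in wild type and 0.21, 0.20, 0.21 and 0.24 in the deficient strain. It was thus 0.083 larger without zfs1 (exact permutation p = 0.0571), with an overlap at wild-type replicate 2.

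rps1201 over rps1202 had an offset of 0.11, 0.20, 0.21 and 0.24 in wild type and 0.11, 0.09, 0.11 and 0.17 in the deficient strain, a change of -0.073 (exact permutation p = 0.0571). rps1501 over rps1502 changed by 0.073 and rps2801 over rps2802 by 0.065 (exact permutation p = 0.143 for each). In these 4 pairs 1 copy had a strain difference of 0.073 to 0.10 and the other one of 0.008 to 0.029. Because a single pair could not pass after adjustment, the test cannot decide whether these copies changed unequally.

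Between the rps6 copies, the rps1 copies and the rps0 copies the offset changed little from strain to strain, as in most pairs. The change of the offset was 0.016 for rps601 over rps602, 0.002 for rps101 over rps102 and 0.007 for rps001 over rps002 (exact permutation p from 0.686 to 1.00). The widest spread was that of rps23 over rps2302, with -0.07, -0.06, -0.00 and 0.55 in wild type and -0.02, -0.03, -0.05 and 0.26 in the deficient strain. Both high values are those of replicate 4, in which rps2302 was low and rps23 (SPAC23C11.02C) was not.

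**Figure D5:**
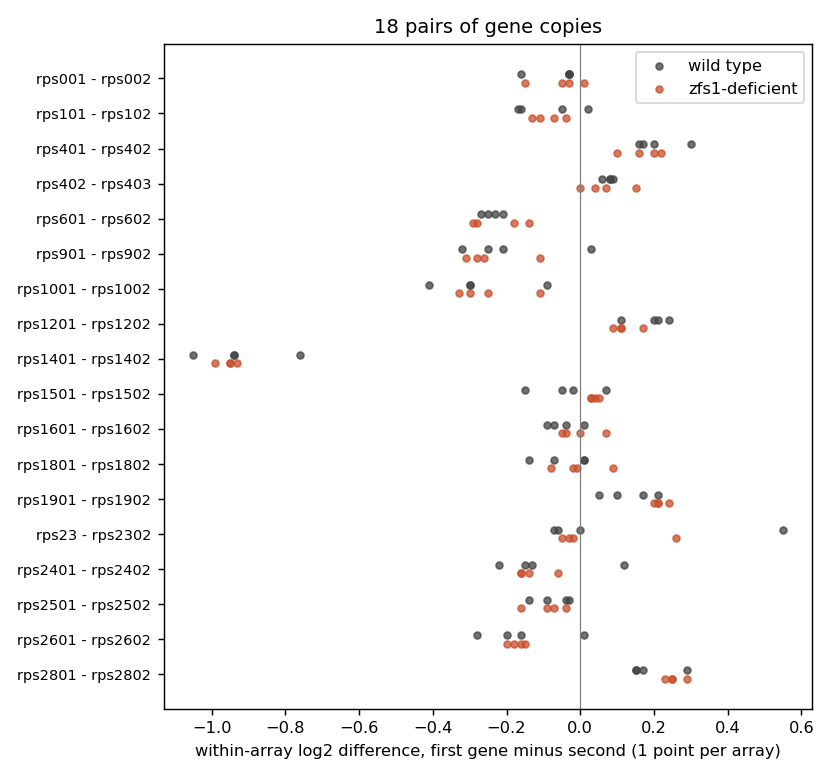
Within-array log2 difference between the copies of a protein (horizontal axis, first gene minus second) for 18 pairs, 1 point per array, with 4 wild-type and 4 zfs1-deficient arrays. The strains overlap in every pair, and rps23 minus rps2302 shows 1 distant array in each strain, replicate 4.

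Some rps genes lie next to each other in the gene table's order of protein-coding genes. These were 3 adjacent couples, rps2 with rps20, rps27 (SPBC1685.10) with rps29 (SPBC1685.09), and rps1402 with rps1601 (SPBC18H10.14). The strain differences were 0.043 and 0.099 in the first couple, 0.048 and 0.062 in the second, and 0.10 and 0.081 in the third. None of these 6 genes passed the test without the block, where 5.78% of all tested probe sets did. With the block only rps20 of them passed, where 24.2% of all tested probe sets did.

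The 74 measured large-subunit ribosomal protein genes (rpl and rpp) were set beside the rps genes, with no test between the lists. Of these 64 had a higher mean in the deficient strain, 0 passed limma's test and 3 higher and 0 lower had an unadjusted p under 0.05, with a median of 0.043, where 47.4% of all tested probe sets had a higher mean and 10.1% were higher at an unadjusted p under 0.05. After quantile normalisation 32 of 74 were higher and the median was -0.004, so their direction depended on the scaling. rpl1001 (SPBC18E5.04) differed by 0.21 ± 0.078 (SE, n = 4; adjusted p = 0.158, and 0.0436 with the block) and rpl22 (SPAC11E3.15) by 0.086 ± 0.037 (adjusted p = 0.223). Of the small-subunit proteins with other names, cpc2, for the subunit's RACK1 protein, differed by 0.065 and ubi3, for a ubiquitin and ribosomal protein fusion, by 0.028 (adjusted p = 0.595 and 0.858).

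A list of 61 names for ribosomal RNA processing and subunit assembly was matched by name alone. The role of each matched gene in this yeast was not checked. Of these names 22 were measured, of which 17 had a lower mean in the deficient strain, with a median of -0.133. The test was passed by 1, as lower. Over all tested probe sets 47.4% had a higher mean and 5.78% passed in either direction, so the 1 call is near the share of the whole array. It was esf1 (SPBC1734.01C), a nucleolar factor of early small-subunit processing, whose wild-type mean signal was 9.88 ± 0.20 and whose mean without zfs1 was 9.38 ± 0.13 (SD, n = 4). The difference was -0.50 ± 0.12 (SE; limma adjusted p = 0.0465). It missed the threshold after cyclic loess (adjusted p = 0.0502) and in 7 of the 8 fits with 1 array left out, in which adjusted p reached 0.134. esf2 (SPBC28E12.05), which acts in the same step, differed by -0.46 ± 0.13 (limma adjusted p = 0.0738, and 0.00950 with the block). With the block 8 of the 22 were called, all lower, among them esf1, esf2, nop9, utp5 and utp20, where 24.2% of all probe sets were called. The median of the assembly genes was -0.118 after cyclic loess and -0.126 after quantile normalisation. Over all tested probe sets the medians were then -0.002 and -0.022. With 1 array left out the assembly median ran from -0.255 to -0.088. The cause of these differences was not tested.

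Of 17 names listed for regulators of ribosomal protein genes and their signalling, 15 were measured and 1 passed the test as higher, again near the 5.78% of all tested probe sets. gad8 (SPCC24B10.07), an AGC kinase of the TOR pathway, had a wild-type mean signal of 9.76 ± 0.10 and a mean of 10.31 ± 0.11 without zfs1 (SD, n = 4). It differed by 0.55 ± 0.096 (SE; limma adjusted p = 0.0122). It missed the threshold without zfs1-deficient replicate 1 or 3 (adjusted p = 0.0510 and 0.0520). rmt3 (SPBC8D2.10C), the methyltransferase of the Rps2 protein, differed by -0.21 ± 0.069 (limma adjusted p = 0.112). It passed as lower with the block (adjusted p = 0.0150), where 24.2% of all tested probe sets passed. The S6 kinase family gene psk1 (SPCC4G3.08) differed by 0.20 ± 0.088 (adjusted p = 0.230), and fhl1, a forkhead factor whose budding yeast counterpart acts at ribosomal protein genes, by 0.35 ± 0.21 (adjusted p = 0.393). The median of the 15 was 0.062, but its sign was not stable, with -0.016 without wild-type replicate 4 and 0.136 without wild-type replicate 3.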

How the data were processed

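The authors deposited 1 table of array signals, read here as log10 signal from its values (array medians from 2.89 to 2.901), since no source used here states the base, scaling or probe summary. Per the labels, biotin-labelled RNA was hybridised for 16 h to Affymetrix arrays. The labels name a nematode array, whereas the probe table pairs the probe sets with fission yeast genes. Values were converted to log2 and not normalised further. Of 5011 probe sets, 17 reporter controls were left out, as were probe sets lacking 2 values for either strain, leaving 4969. Gene names came from the probe table, updated by gene identifier through the table of assembly ASM294v3. No promoter or protein sequences were used, so the planned promoter motifs were not analysed here.

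The strain difference was fitted in R 4.3.3 with limma 3.58.1 (lmFit, eBayes with a variance trend, two-sided, Benjamini-Hochberg adjustment over the 4969, threshold 0.05), tested on simulated data. Pairs of copies were compared by an exact permutation test in Python 3.11.15, and figures drawn with matplotlib 3.10.9. As a check of pairing, the departures from the strain mean were correlated between wild-type and deficient arrays of equal number, giving 0.33, 0.29, 0.18 and 0.66 for numbers 1 to 4. Each lay above 0.1, the rule for taking the numbers as pairing the cultures, although some unlike numbers did too (wild type 1 with zfs1-deficient 3 at 0.37). The labels give no shared batch. The reported fits are without the pairing. Values with the number as a block are given where they change the call of an rps gene, and for some other genes. The number of arrays limits the precision. limma's p-values rest on the spread between these cultures, drawn toward that of probe sets of like brightness.

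The members, lists and tests were chosen with earlier results of these data known. Named with values were members with an unadjusted p under 0.05, the 5 highest and 5 lowest differences, the copies in the 4 pairs with the largest change, rps2, rps601, rps602, members with an outlying array and, from each other list, called genes or the 2 with the smallest p. The other genes named were chosen after their values were seen. Alternatives tried were other scalings, an offset, array weights, no variance trend, a brightness filter, the replicate block, arrays left out and other probe sets of a gene.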

Additional observations from a re-analysis of the deposited data

Results flagged for a closer look

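In 7 of the 90 sets of 4 arrays (45 rps genes in each strain), 1 array stood far from the other 3, by Dixon's criterion at its 95% critical value. Chance flags about 1 in 20 such sets.

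Of the 7 outlying values 5 were those of zfs1-deficient replicate 4. rps1002 stood low there at 12.29, against 12.62 to 12.63 on the other 3 arrays. rps2401 stood high at 12.72 (others 12.52 to 12.56), rps2801 at 12.65 (12.53 to 12.55), rps2802 at 12.42 (12.26 to 12.29) and rps3002 at 12.78 (12.67 to 12.69). rps2302 stood low at 12.16 in wild-type replicate 4, against 12.66 to 12.70. rps1202 stood low at 12.52 in zfs1-deficient replicate 1, where the other 3 arrays were all at 12.55. Without the outlying array the strain difference was 0.009 for rps2302 (0.14 with it), 0.084 for rps1002 (0.003), -0.017 for rps2401 (0.030), 0.046 for rps2801 (0.073), -0.027 for rps2802 (0.008), 0.062 for rps3002 (0.088) and 0.10 for rps1202 (0.094).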

How the results depend on the processing

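The number of rps genes called was 0 under every other scaling, without a variance trend, with an offset of 64, without the dimmest 25% of probe sets, with other probe sets of a gene, and with any 1 array or both replicate 4 arrays left out. It was 2 with the replicate block, where 24.2% of all tested probe sets were called. With array weights it was 11, where 1517 of all 4969 tested probe sets were called. The rps genes called in these fits were all higher. Array weights ran from 0.176 to 6.55, for replicates 4 and 1 of the deficient strain. The 7 genes at an unadjusted p under 0.05 became 15 with the block, where the share of all probe sets at that level was not counted. They became 1 after cyclic loess and 0 after quantile normalisation or without a variance trend. With 1 array left out they became 1 on dropping replicate 1 of either strain or zfs1-deficient replicate 3. They became 2 on dropping zfs1-deficient replicate 2 and 3 on dropping replicate 4 of either strain. The median rps difference of 0.064 was 0.014 after quantile normalisation and 0.030 after cyclic loess, 0.041 without both replicate 4 arrays, and 0.043 to 0.074 with 1 array left out. The count of higher means ran from 38 to 44 with 1 array left out. The 287 called probe sets of the array became 1201 with the block, 1517 with array weights, 609 without both replicate 4 arrays and 103 to 306 with 1 array left out.

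Near 0, the sign of 10 named genes turned. After quantile normalisation rps1002 was at -0.047, rps1201 at -0.032, rps1502 at -0.026, rps1902 at -0.037, rps2 at -0.004, rps2401 at -0.025, rps2502 at -0.025, rps2802 at -0.031 and rps602 at -0.009. After cyclic loess rps1002 was at -0.027, rps1201 at -0.013, rps1502 at -0.000, rps1902 at -0.021, rps2401 at -0.002, rps2502 at -0.025 and rps2802 at -0.015. With array weights rps1902 was at -0.001, and with centred arrays rps2501 was at 0.007. With 1 array left out rps1002 ran from -0.071 to 0.084, rps1902 ran from -0.003 to 0.021, rps2401 ran from -0.017 to 0.074, rps2501 ran from -0.022 to 0.018, rps2502 ran from -0.006 to 0.042 and rps2802 from -0.029 to 0.050. The cause was not tested. Of 18 pairs of copies 0 were called in any setting, which says nothing about stability: with the pairing of replicate numbers the smallest p possible is 0.125, and without it a single pair could not pass after adjustment.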
